A study of Mus musculus with 2 samples.

Results

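The collagen genes were taken as every gene of the deposited tables whose symbol is Col, a number, the letter a and a number, which gave 44 of 32285 genes. They were read in 2 single-cell RNA sequencing libraries of optic nerves from Nf1-OPG mice, in which a low-grade glioma forms along the optic pathway. The animals are Nf1 flox/mut with GFAP-Cre on a C57BL/6 background, so that an Nf1 allele is mutant in every cell and the remaining allele is removed where the astroglial GFAP promoter drives Cre recombinase. The libraries, C-ON and FMC_new, share this genotype label, a sampling age of 12 weeks and a protocol that pooled optic nerves of 10 mice, without saying whether these are 10 for each library, and took the meningeal dura apart from the nerves. They were treated as 2 samples of a single group. C-ON is also titled a control, and the labels do not give what it is a control for. Nothing in the labels says that the pools came from separate animals, and there is no group of another genotype. No test between conditions was therefore possible. Values are given for each library with exact 95% intervals, Poisson for levels and Clopper-Pearson for shares, which cover counting error only. Where no molecule was counted, the value said to be allowed is 3 molecules over the total, which is below the exact upper limit.

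Collagens are extracellular proteins built from 3 chains that wind into a triple helix, and each gene encodes a chain. The fibrillar collagens (types I, II, III, V and XI) form the cables of connective tissue, with type I built from the chains of Col1a1 and Col1a2. Type IV collagen forms the sheet of basement membranes around vessels and at the surface of the nervous system, type VI forms beaded microfilaments near cells, and types IX, XII, XIV and XVI attach to fibrils. Types XIII, XXIII and XXV are transmembrane collagens with a short intracellular part. In an optic nerve, the meninges and vessels carry most fibrous collagen, while glial cells lie behind a basement membrane.

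C-ON held 10845 barcodes with 85101211 unique molecular identifiers (UMIs, the counted RNA molecules), and FMC_new 21341 with 129113325. After limits on genes, UMIs and mitochondrial reads, 8832 cells with a median of 6812 UMIs and 16817 cells with a median of 4676 UMIs were kept. The libraries shared 296 barcodes, of which 188 were kept in a library. Cells were named from marker genes after clustering without the collagen genes, and the names end in -like for this reason. The fibroblast-like class had 100 cells in C-ON and 389 in FMC_new, the tumor-like class 215 and 1370, the oligodendrocyte-like class 5316 and 2078, the astrocyte-like class 20 and 213, the microglia-like class 218 and 1722, and the endothelial-like class 2 and 8. The tumor-like class rests on markers of oligodendrocyte precursors, and normal precursors cannot be told apart from tumor cells within it. FMC_new also held 1713 pituitary-like cells, a tissue that its label does not name, and the 19 such cells of C-ON had no UMI of Gh, Prl, Pou1f1, Tbx19 or Ghrhr. Of the marker lists, Dpt was at 0 in the fibroblast-like cells of C-ON, Plvap in the endothelial-like cells of both libraries and Kdr in those of FMC_new, while all markers of the tumor-like, oligodendrocyte-like, astrocyte-like and microglia-like classes had UMIs in both libraries. T cells are not known as collagen producers, so the T cell-like class (1024 and 3635 cells, median 3326 and 3019 UMIs) is given as the background of free RNA.

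The start regions of 5 collagen genes of types I, VI and IV, whose chain partners are compared below, are shown. Those of type XI, also compared below, are not. They come from RefSeq on GRCm38.p6 and run from 250 bases before to 50 bases after the start of transcription, 5′ to 3′ on the gene's strand. Capitals mark 3 motifs on either strand: the TATA box written as TATAAA, the box that is read by nuclear factor Y and written as CCAAT, and the box for Sp1-type factors written as GGGCGG. None of them overlaps another in these windows.
Col1a2 (chr6:4505368-4505667, plus strand): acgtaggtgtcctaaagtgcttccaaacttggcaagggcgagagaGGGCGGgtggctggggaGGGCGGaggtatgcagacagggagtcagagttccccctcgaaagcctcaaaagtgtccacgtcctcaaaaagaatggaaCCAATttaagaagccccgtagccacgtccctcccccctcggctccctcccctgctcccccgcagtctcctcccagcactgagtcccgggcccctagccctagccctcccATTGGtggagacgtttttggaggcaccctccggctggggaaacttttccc
Col6a1 (chr10:76725995-76726294, minus strand): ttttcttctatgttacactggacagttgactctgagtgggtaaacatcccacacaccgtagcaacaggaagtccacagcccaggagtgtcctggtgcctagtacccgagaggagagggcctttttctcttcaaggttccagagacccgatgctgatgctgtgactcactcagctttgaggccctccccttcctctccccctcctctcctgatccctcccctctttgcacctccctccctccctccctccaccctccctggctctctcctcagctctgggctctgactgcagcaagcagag
Col6a2 (chr10:76623581-76623880, minus strand): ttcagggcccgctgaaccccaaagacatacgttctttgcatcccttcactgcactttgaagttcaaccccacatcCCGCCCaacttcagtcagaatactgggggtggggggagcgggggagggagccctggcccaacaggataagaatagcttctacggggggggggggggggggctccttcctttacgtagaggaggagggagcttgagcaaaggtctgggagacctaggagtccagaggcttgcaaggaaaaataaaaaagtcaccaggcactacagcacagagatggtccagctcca
Col4a1 (chr8:11312777-11313076, minus strand): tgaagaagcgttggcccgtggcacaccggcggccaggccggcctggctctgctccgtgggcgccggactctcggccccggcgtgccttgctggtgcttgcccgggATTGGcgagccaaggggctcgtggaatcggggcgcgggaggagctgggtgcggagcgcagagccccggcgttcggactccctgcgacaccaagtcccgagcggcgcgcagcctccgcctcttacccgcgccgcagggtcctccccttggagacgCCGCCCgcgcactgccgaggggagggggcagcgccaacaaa
Col4a2 (chr8:11312555-11312854, plus strand): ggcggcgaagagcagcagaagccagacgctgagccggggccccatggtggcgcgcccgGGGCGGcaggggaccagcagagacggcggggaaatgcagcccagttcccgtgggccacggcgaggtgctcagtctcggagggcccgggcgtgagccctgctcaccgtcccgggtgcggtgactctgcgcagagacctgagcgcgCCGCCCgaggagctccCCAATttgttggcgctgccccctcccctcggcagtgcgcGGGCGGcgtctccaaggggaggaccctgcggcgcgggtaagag

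Col4a1 and Col4a2 start on opposite strands 21 bases apart on chromosome 8, and their windows share 78 bases. For Col6a2 the table holds 2 windows, of which the first is shown. Windows were found for 35 of the 44 collagen genes, not including Col1a1. The TATA box was present in 14.3% of these against 13.6% of all 32851 promoter windows of the same length, the CCAAT box in 34.3% against 37.4%, and the GGGCGG box in 62.9% against 35.7%. These shares describe letters in a window and were not tested. All 44 genes were found in the annotation of GRCm38 by their identifier. Its gene starts can differ from the RefSeq starts used for the windows. Col1a2 starts there at chr6:4504814, upstream of the whole window shown for it. Col1a1 lies at chr11:94936224-94953042, plus strand, Col9a3 at chr2:180597790-180622189, plus strand and Col25a1 at chr3:130131501-130599877, plus strand. Exons of 3 collagen genes overlap another gene on the same strand, among them Col3a1 with Gm47302, and those of 10 overlap a gene on the opposite strand.

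Collagen RNA was concentrated in the fibroblast-like cells, which made up 1.13% and 2.31% of kept cells and held 22.7% and 29.1% of collagen UMIs in C-ON and FMC_new. Their summed collagen level was 3654 (3508 to 3805) counts per 1000000 UMIs of the class (CPM, 95% interval in parentheses here and below) in C-ON and 2721 (2651 to 2793) in FMC_new. Among the 5 classes set in order here, the tumor-like cells followed at 431 (395 to 469) and 525 (509 to 542) CPM. The oligodendrocyte-like cells were at 132 (129 to 135) and 135 (129 to 140.4), and the microglia-like cells at 126 (107 to 147) and 97.4 (90.9 to 104). The T cell-like background was 40.9 (35 to 47.5) and 24.3 (21.7 to 27.1) CPM. Both libraries gave this order of the 5 classes, and the intervals of neighbours did not overlap, except for microglia-like and oligodendrocyte-like cells in C-ON. Outside this order, the neuron-like class (35 and 20 cells) lay above the tumor-like class, at 733 (635 to 841) and 578 (471 to 703) CPM. The intervals of these 2 classes overlapped in FMC_new. The endothelial-like class (2 and 8 cells) was at 600 (241 to 1235) and 202 (55 to 517) CPM. Oligodendrocyte-like cells, 60.2% of kept cells in C-ON and 12.4% in FMC_new, held 58.6% and 11.8% of collagen UMIs. The share of the fibroblast-like class depended on how cells were put in classes: a gate on the markers found in each cell put 24 and 64 cells in the class, and their share averaged 7.72% over the libraries, against 25.9% with clusters. The astrocyte-like cells stood apart between the libraries, at 281 (172 to 435) CPM in C-ON and 2449 (2345 to 2556) in FMC_new, and are described separately below.

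**Figure D1:**
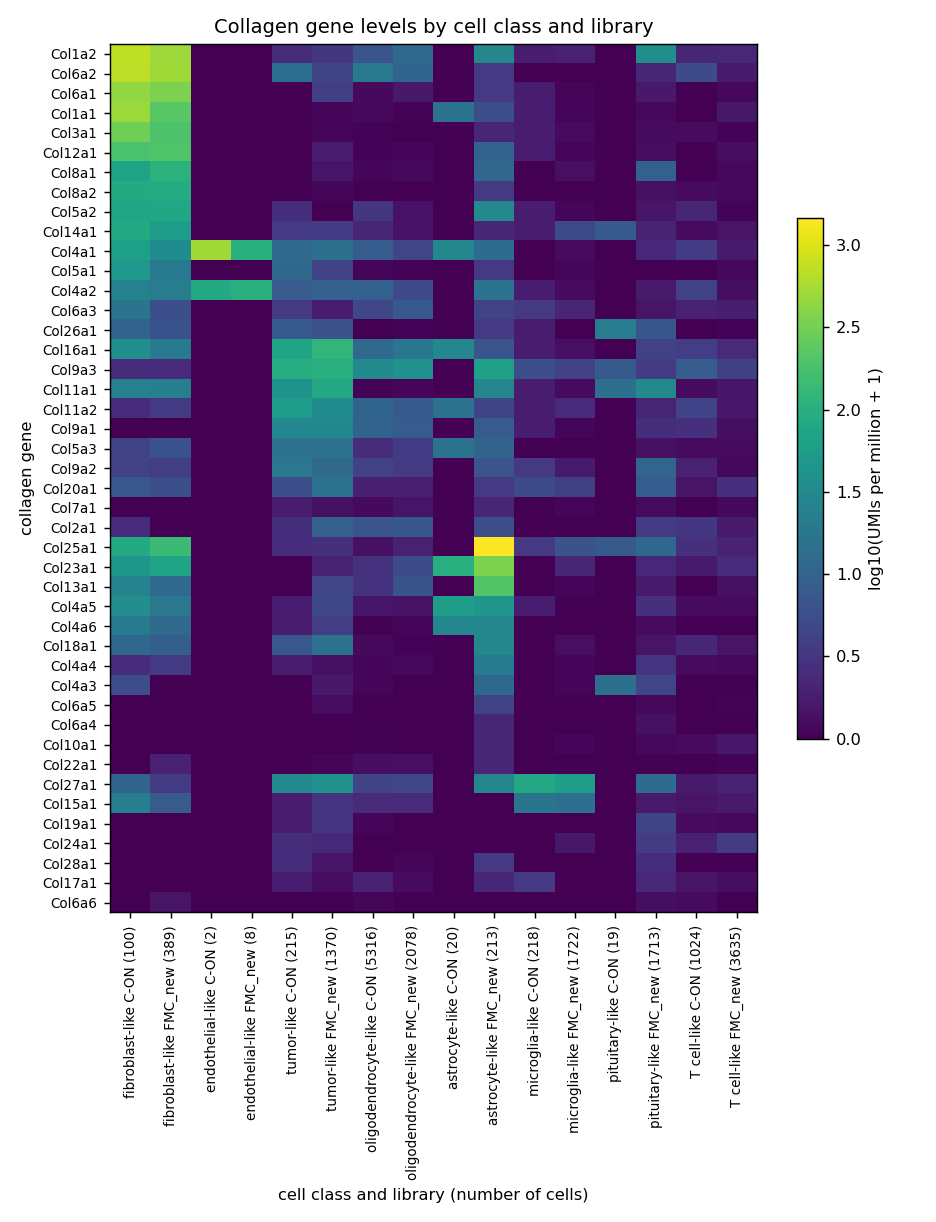
Level of the 44 collagen genes (rows) in 8 cell classes of each library (columns, with the number of cells), colored by log10 of CPM plus 1. The brightest block is the fibroblast-like class at the top left, types IX, XI and XVI are bright in the tumor-like columns, and Col25a1 is bright in the astrocyte-like cells of FMC_new.

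Of the 44 genes, 43 had a UMI in both libraries. A gene was described singly where, in every library with 20 cells of a class, it reached 20 CPM in that class with an interval above that of the T cell-like cells. This rule named 22 genes, of which 15 met the rule in fibroblast-like, 6 in tumor-like, 3 in astrocyte-like, 2 in pituitary-like, 1 in oligodendrocyte-like and 1 in microglia-like cells, with some in more than a single class. The endothelial-like class was under 20 cells and could not meet it. The other 22 genes ranged in their highest level in these classes from 0.481 to 203 CPM, and 12 of them stayed below 10 CPM. They are given by count or as chain partners. Col2a1, Col13a1, Col15a1, Col18a1, Col19a1 and Col20a1, and the clusters and sub-clusters singled out below, were picked after their values had been seen. The kit counts molecules from their 5′ end, so levels were not scaled by gene length and were compared between genes as molecules counted.

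Of the fibrillar chains, those of type I were highest in the fibroblast-like cells. Col1a2 was at 729 (665 to 798) in C-ON and 506 (476 to 538) in FMC_new, and its partner Col1a1 at 485 (433 to 542) in C-ON and 221 (202 to 242) in FMC_new. Both lay far above the T cell-like cells, where Col1a2 was at 1.19 and 1.24 CPM and Col1a1 at 0 (a count of 0 allows 0.717 CPM) and 0.621 CPM. The intervals of the libraries did not overlap for either gene, and Col1a1 was 2.19 times as high in C-ON. Col3a1, the chain of the fine type III fibrils that mix with type I, was at 305 (264 to 351) in C-ON and 192 (174 to 212) in FMC_new, again higher in C-ON. With cells gated on their markers, the mean level over the libraries was 726 CPM for Col1a1 against 353 CPM with clusters, and 509 against 249 CPM for Col3a1. Of the type V chains, which start fibrils and limit their width, Col5a2 was at 71.5 and 75.5 CPM with overlapping intervals and Col5a1 at 48.2 and 18.3 CPM with intervals apart. Col11a1, a related chain best known from cartilage, was at 23.3 and 21.6 CPM and Col11a2 had 1 and 5 UMIs. Col2a1, the main fibrillar chain of cartilage, had 1 UMI in the fibroblast-like cells of C-ON and 0 in those of FMC_new.

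Type VI collagen was as abundant as type I in these cells. Col6a2 was at 703 (639.5 to 771) in C-ON and 521 (491 to 553) in FMC_new, and Col6a1 at 448 (398 to 503) in C-ON and 345 (320.1 to 371) in FMC_new. In each library Col6a2 and Col1a2 did not differ beyond their intervals, and Col6a1 lay below both. The third chain of classical type VI trimers, Col6a3, had 10 and 10 UMIs, or 15.5 and 4.81 CPM. Among the fibril-associated collagens, Col12a1 was at 182 (150.5 to 218) in C-ON and 197 (178 to 217) in FMC_new and Col14a1, its close relative, at 84 (63.1 to 109.6) in C-ON and 55.3 (45.7 to 66.4) in FMC_new. Col16a1 was lower, at 37.3 and 19.2 CPM.

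The short-chain collagens of type VIII, known from the membranes under the corneal endothelium and from vessel walls, were present at near equal levels. Col8a2 was at 85.5 (64.4 to 111) in C-ON and 87.1 (74.8 to 101) in FMC_new, and Col8a1 at 68.4 (49.7 to 91.8) in C-ON and 106 (92.8 to 121) in FMC_new, where FMC_new was higher. The transmembrane Col25a1, known from neurons and for binding amyloid, was at 85.5 (64.4 to 111) in C-ON and 142 (126 to 159) in FMC_new, also higher in FMC_new. The most UMIs in a single cell of FMC_new were 42 of 295 for Col25a1 and 11 of 221 for Col8a1. In C-ON they were 8 of 55 and 10 of 44. Whether these 2 differences hold without such cells was not tested. The transmembrane Col23a1 was at 46.6 (31.5 to 66.6) in C-ON and 70.2 (59.3 to 82.6) in FMC_new. Of the type IV chains, Col4a1 was at 60.6 (43.1 to 82.9) in C-ON and 33.7 (26.2 to 42.5) in FMC_new and Col4a2 at 23.3 (13.1 to 38.5) in C-ON and 21.2 (15.4 to 28.4) in FMC_new. Over the 27 collagen genes with at least 10 UMIs in the 2 libraries together, 10 had intervals apart between the libraries, 8 of them higher in C-ON and 2 (Col25a1 and Col8a1) higher in FMC_new. Of all 12022 genes compared in this way, 9.75% had intervals apart, 5.91% higher in C-ON and 3.84% higher in FMC_new. Intervals narrow with more UMIs, and the members were not matched to other genes on level. The median UMI count of the fibroblast-like cells was 5475 in C-ON and 4859 in FMC_new. The part of cell makeup and sampling in these differences was not tested.

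**Figure D2:**
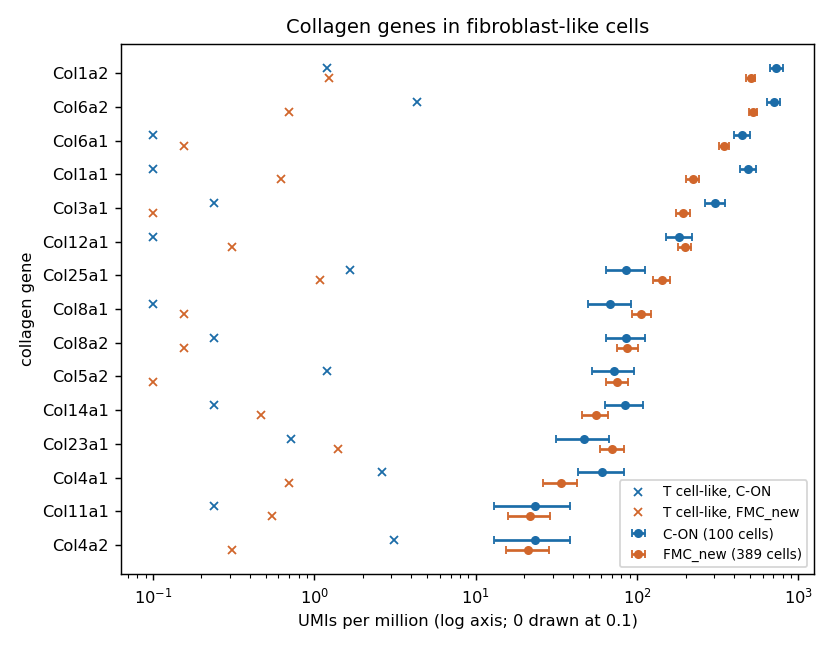
Level of the 15 collagen genes that met the rule in fibroblast-like cells (points with exact 95% Poisson intervals, CPM on a log axis) and of the same genes in T cell-like cells (crosses, 0 drawn at 0.1) in both libraries. Each fibroblast-like value lies above the T cell-like value of its library, and Col1a1 shows the widest gap between the libraries among the 5 highest genes.

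Shares of fibroblast-like cells with a UMI are given for 3 of these genes. With each cell thinned to 1000 UMIs, which left out 1 and 12 shallower cells, Col1a2 was found in 41.4% (31.6 to 51.8%) of fibroblast-like cells in C-ON and 35.5% (30.7 to 40.6%) in FMC_new, against 84% and 70.4% at full depth. For Col6a2 the thinned shares were 47.5% (37.3 to 57.8%) and 31.6% (26.9 to 36.5%), and for Col1a1 they were 30.3% (21.5 to 40.4%) and 14.1% (10.7 to 18%). In thinned T cell-like cells the shares of these genes were 0 to 0.3%. The shares of Col6a2 and Col1a1 were higher in C-ON with intervals apart, and those of Col1a2 overlapped. Cells with both type I chains were common, with 64 of 100 cells in C-ON and 127 of 389 in FMC_new holding UMIs of Col1a1 and Col1a2 at full depth.

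Fibroblast-like cells were next set against the other main classes, in comparisons added after the data were seen, except for the endothelial-like cells. Against the tumor-like cells, 31 collagen genes had at least 10 UMIs in the pair of classes in each library. A difference was called where the level was at least 2 times as high in both libraries with Poisson intervals apart, and a class with fewer than 3 UMIs was set to 3. By this rule 19 of the 31 were higher in fibroblast-like cells, where 8.65% of 12156 genes were called in that direction. The other way, 4 were higher in tumor-like cells, against 14.2% of all genes. Those 4 were Col9a1, Col9a3, Col27a1 and Col11a2. Col9a1, a chain of the fibril-associated type IX, had no UMI in fibroblast-like cells of either library. With the fibroblast-like class set at 3 UMIs, its level in tumor-like cells was 6.17 times as high in C-ON and 20.1 times in FMC_new. Col1a1 had 0 UMIs in the tumor-like cells of C-ON, which puts the fibroblast-like level at least 202 times higher, and 1 UMI in those of FMC_new.

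Against the oligodendrocyte-like cells, 22 of 31 collagen genes were higher in fibroblast-like cells, where 17.4% of 14359 genes were called that way. A single gene, Col9a3, was higher in oligodendrocyte-like cells, against 10.6% of all genes, with 1 and 3 UMIs in the fibroblast-like cells. The 8 without a call included Col16a1 (37.3 and 19.2 CPM in fibroblast-like, 11.0 and 16.4 CPM in oligodendrocyte-like cells) and Col6a3 (15.5 and 4.81 CPM against 3.66 and 6.41 CPM), whose direction differed between the libraries.

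Fibroblast-like cells fell into 9 sub-clusters, also formed without the collagen genes. Their values are given as a description, since the grouping used the other genes of the same cells. The sub-cluster led by Vtn, Dcn and Lum, with 14 cells in C-ON and 22 in FMC_new, had a different set of collagens from the other fibroblast-like cells. Col15a1, a collagen of basement membrane zones, was at 236 against 5.03 CPM in C-ON and 121 against 1.52 CPM in FMC_new, and the transmembrane Col13a1 at 258 against 6.71 CPM in C-ON and 121 against 5.56 CPM in FMC_new. Col23a1 was at 172 against 36.9 CPM in C-ON and 161 against 65.7 CPM in FMC_new. The type IV chains Col4a5 and Col4a6, whose genes lie head to head on the X chromosome, went the same way. Col4a5 was at 172 against 23.5 CPM in C-ON and 131 against 11.1 CPM in FMC_new, and Col4a6 at 107 against 11.7 CPM in C-ON and 151 against 4.55 CPM in FMC_new. All 5 genes had intervals apart in both libraries. In the opposite direction, Col6a2 was at 322 against 733 CPM in C-ON and 90.6 against 543 CPM in FMC_new. Col1a2 was at 536 against 744 CPM in C-ON and 483 against 507 CPM in FMC_new, with overlapping intervals. Col25a1 had 1 and 0 UMIs in this sub-cluster.

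Among the other sub-clusters, summed collagen was highest in the sub-cluster led by Ccn3, Ecrg4, Slc47a1 and Ogn, at 5013 (4689.9 to 5353) and 3781 (3597 to 3973) CPM. In FMC_new its interval overlapped that of the next sub-cluster. Among the sub-clusters present in both libraries it was lowest in one led by Ccn3, Ecrg4 and Ogn, at 1982 (1712 to 2282) and 1232 (1056 to 1429.5) CPM, where an immunoglobulin segment, Ighv6-3, was also among the 10 leading genes. In C-ON the interval of this lowest sub-cluster overlapped those of others, among them one at 2143 (1860 to 2457) CPM. Col25a1 was at 202 and 339 CPM in the sub-cluster led by Ccn3, Slc47a1 and Slc4a10, above its level in the class as a whole. Col3a1 reached 694 and 481 CPM in the sub-cluster led by Dcn, Mfap5 and Islr, with intervals above the class level in both libraries.

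The endothelial-like class was too small for most comparisons. Its 10 cells held UMIs of only Col4a1 (6 in C-ON, 2 in FMC_new) and Col4a2 (1 and 2), the main chains of vessel basement membranes, or 514 (189 to 1118) CPM of Col4a1 in C-ON and 101 (12.2 to 364) in FMC_new. A count of 0 there allows up to 257 CPM in C-ON and 151 CPM in FMC_new. Of 22 collagen genes tested, 2 (Col1a2 and Col6a2) were called higher in fibroblast-like cells, against 0.601% of 8159 genes, and none was called higher in endothelial-like cells, against 1.2%. Neither call was made at 4-fold or with cells thinned to 1000 UMIs. The level of Col4a1 was higher in endothelial-like than in fibroblast-like cells, which had 60.6 (43.1 to 82.9) CPM in C-ON and 33.7 (26.2 to 42.5) in FMC_new. The intervals of Col4a1 were apart in C-ON and overlapped in FMC_new, so it was not called.

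The tumor-like cells carried a different set. Col16a1, a fibril-associated collagen, was at 70.4 (56.5 to 86.7) in C-ON and 119 (112 to 127) in FMC_new, and Col9a3, a chain of type IX, at 92.8 (76.7 to 111) in C-ON and 95.1 (88.2 to 102) in FMC_new. Col11a1 was at 41.6 (31.1 to 54.5) in C-ON and 81.2 (74.9 to 87.8) in FMC_new and Col11a2 at 55.2 (42.9 to 69.8) in C-ON and 32.4 (28.5 to 36.8) in FMC_new. Col27a1, a fibrillar collagen of developing cartilage, was at 31.2 (22.2 to 42.6) in C-ON and 38.9 (34.6 to 43.6) in FMC_new, and Col9a1 at 28.8 (20.2 to 39.9) in C-ON and 29 (25.3 to 33.1) in FMC_new. Each of these 6 genes met the rule in both libraries. Col9a3, Col9a1 and Col27a1 had overlapping intervals between libraries, while Col16a1 and Col11a1 were higher in FMC_new and Col11a2 in C-ON. T cell-like cells had 2.87 and 1.4 CPM of Col16a1, 7.41 and 3.03 CPM of Col9a3 and 3.35 and 0.621 CPM of Col11a2. The type V chain Col5a3 (15.2 and 14.8 CPM), Col9a2 (16.8 and 11.4 CPM) and the type IV chains Col4a1 (11.2 and 13.9 CPM) and Col4a2 (7.2 and 9.0 CPM) were lower. Over 26 collagen genes compared, 7 had intervals apart between the libraries, 4 of them higher in FMC_new, against 15.2% of all 15260 genes compared, 8.26% higher in C-ON and 6.99% higher in FMC_new.

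This set was shared between the 2 tumor-like clusters, in different amounts. The larger cluster, led by Cspg5, Pdgfra and Vcan, had 459 (419 to 502) and 588 (568 to 608) CPM of collagen, and the smaller, whose leading genes include Neu4 and Gpr17 and the immunoglobulin segment Igkv8-30, 288 (219 to 371) and 341 (315 to 368) CPM. In FMC_new Col16a1 was at 139.6 and 59.6 CPM and Col11a1 at 97.3 and 33.4 CPM in the larger and the smaller cluster, whereas Col9a3 was at 96.6 and 90.4 CPM. The intervals of Col9a3 overlapped and those of Col16a1 and Col11a1 did not. The median UMI count in FMC_new was 6229 in the larger and 2169 in the smaller cluster.

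Oligodendrocyte-like cells were set against tumor-like cells because both belong to the same glial lineage. Of 25 collagen genes tested, 11 were higher in tumor-like cells, where 23.6% of 15080 genes were called that way, and none was higher in oligodendrocyte-like cells, where 6.55% were. In FMC_new alone 20 genes passed the limits, and with cells thinned to 1000 UMIs 5 did so in both libraries. The shares of all genes under these 2 settings are not given, so these counts show only how the calls depend on the setting. The ratio of tumor-like to oligodendrocyte-like levels was 6.39 times in C-ON and 7.29 times in FMC_new for Col16a1, 9.12 times in C-ON and 10.3 times in FMC_new for Col27a1, 5.77 times in C-ON and 4.92 times in FMC_new for Col11a2, and 2.93 times in C-ON and 2.46 times in FMC_new for Col9a3. Col11a1 stood apart, with 3 UMIs in 5316 oligodendrocyte-like cells of C-ON and 2 in 2078 of FMC_new. In cells thinned to 1000 UMIs, Col9a3 was found in 9.48% (5.89 to 14.3%) of tumor-like and 3.11% (2.66 to 3.61%) of oligodendrocyte-like cells in C-ON, and in 9.49% (7.95 to 11.2%) and 3.9% (3.11 to 4.83%) in FMC_new. At full depth, C-ON had Col9a3 in 29.3% of tumor-like (median 5313 UMIs) and 22.6% of oligodendrocyte-like cells (median 8082 UMIs), and FMC_new in 30.9% (median 5320) and 24.4% (median 7828). T cell-like cells had it in 2.73% and 0.935%. The remaining calls were Col9a1, Col9a2, Col5a1, Col5a3, Col18a1 and Col20a1, and Col5a1, Col18a1 and Col20a1 rested on 13, 8 and 6 UMIs in the tumor-like cells of C-ON.

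**Figure D3:**
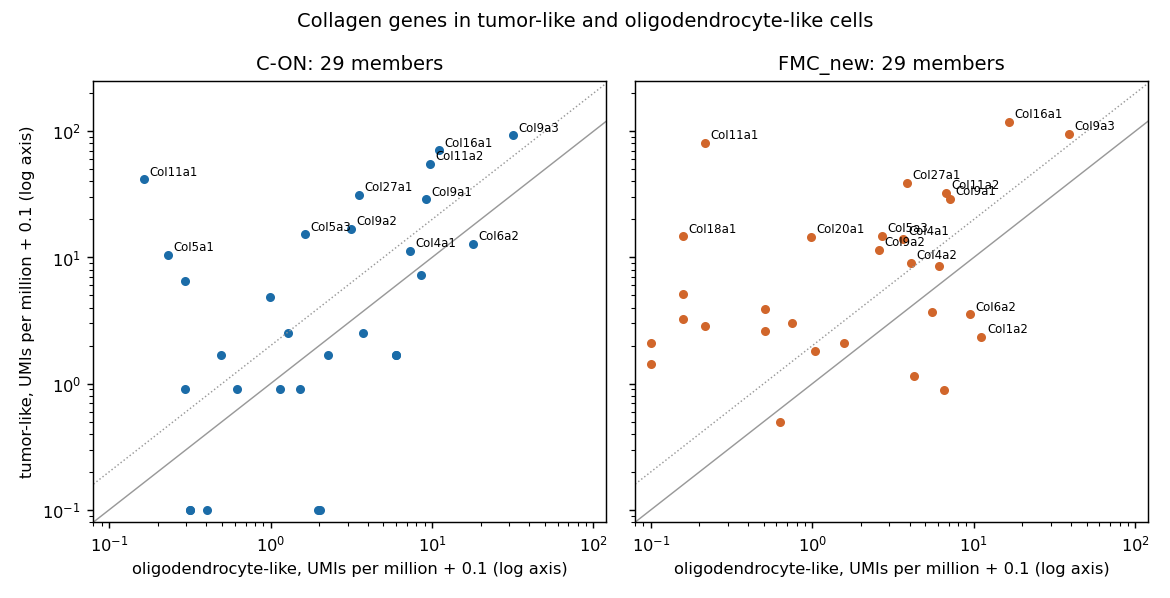
Level of collagen genes in tumor-like cells against oligodendrocyte-like cells in each library (CPM plus 0.1 on log axes, 29 genes a panel). The solid line marks equal levels and the dotted line 2 times higher in tumor-like cells. Col11a1 lies far above both lines, whereas Col6a2 lies below or near the solid line in both panels.

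Within the oligodendrocyte-like cells Col9a3 was the highest collagen, at 31.7 (30.1 to 33.4) in C-ON and 38.6 (35.7 to 41.7) in FMC_new, and the only one to meet the rule there. Its level was similar in the 4 clusters of the class, at 28.6 to 33.4 CPM in C-ON and 33.4 to 40.2 CPM in FMC_new. Exons of Col9a3 overlap those of Tcfl5 on the opposite strand, and how the counting treated strand is not given in the sources used here. Other collagens were unevenly spread. The cluster led by C4b, Serpina3n, Klk6 and Il33, genes known from reactive glia, held 16.6% of the oligodendrocyte-like cells in C-ON and 46.6% in FMC_new, but 85 of 86 and 89 of 92 UMIs of Col13a1. It also held 68 of 89 and 65 of 71 UMIs of Col23a1. Col16a1 was at 23.3 and 21.3 CPM in that cluster and 4.03 and 5.75 CPM in the cluster led by Ptgds and Opalin. Col1a2 was at 17.4 and 13.9 CPM against 0.513 CPM and 0 of 188 UMIs in the same 2 clusters. In the cluster led by A530053G22Rik, Gjb1 and Hapln2, Col6a2 was at 32.3 and 14 CPM and Col2a1 at 10.7 and 14 CPM, the highest of the 4 clusters, although the interval of Col6a2 in FMC_new overlapped that of the C4b cluster. Col1a2 was also present in this cluster, at 5.98 (4.89 to 7.23) and 15.1 (11.4 to 19.7) CPM. Col16a1 was there at 11.8 (10.2 to 13.5) and 16.8 (12.8 to 21.5) CPM. In FMC_new the intervals of both genes overlapped those of the C4b cluster, so neither was particular to it. A single cell held 15 of the 102 UMIs of Col2a1 in the oligodendrocyte-like cells of FMC_new.

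Chains that are partners in a protein differed in balance between the classes. Col1a1 made up 39.9% (36.5 to 43.5%) and 30.4% (28.1 to 32.8%) of the UMIs of the 2 type I chains in fibroblast-like cells of C-ON and FMC_new. In oligodendrocyte-like cells it made up 3.56% (1.72 to 6.45%) and 0.529% (0.0134 to 2.91%), where Col1a2 had 271 and 188 UMIs and Col1a1 10 and 1, with no cell holding both. Type VI behaved alike. Col6a1 made up 38.9% (35.4 to 42.5%) and 39.8% (37.5 to 42.1%) of Col6a1 and Col6a2 UMIs in fibroblast-like cells, and 1.2% (0.577 to 2.2%) and 6.47% (3.27 to 11.3%) in oligodendrocyte-like cells. Col6a2 had 823 and 159 UMIs there, with up to 15 in a cell, and its T cell-like levels were 4.3 and 0.699 CPM against 17.9 and 9.35 CPM. Col6a3 had 168 and 109 UMIs in oligodendrocyte-like cells, more than Col6a1.

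The balance of the type XI chains moved furthest. Col11a1 made up 93.8% (69.8 to 99.8%) and 90% (78.2 to 96.7%) of Col11a1 and Col11a2 UMIs in fibroblast-like cells, 43% (34 to 52.3%) and 71.4% (68.3 to 74.4%) in tumor-like cells, and 0.679% (0.14 to 1.97%) and 1.75% (0.213 to 6.19%) in oligodendrocyte-like cells, where Col11a2 had 439 and 112 UMIs. The tumor-like shares of the libraries did not overlap. Of the pairs of types I, IV, VI and XI, Col4a1 and Col4a2 differed least in balance between fibroblast-like and oligodendrocyte-like cells. Col4a1 made up 72.2% (58.4 to 83.5%) and 61.4% (51.8 to 70.4%) in fibroblast-like, 60.9% (38.5 to 80.3%) and 60.7% (53 to 68%) in tumor-like, and 46.3% (42.6 to 50.04%) and 46.9% (38 to 55.9%) in oligodendrocyte-like cells. The intervals of fibroblast-like and oligodendrocyte-like cells were apart in C-ON and overlapped in FMC_new. Their first exons overlap on opposite strands, so a part of these UMIs could be split between them depending on the counting. Of the type IX chains, Col9a1 made up 23.7% (17.2 to 31.3%) and 23.4% (20.7 to 26.2%) of Col9a1 and Col9a3 UMIs in tumor-like cells and 22.4% (20.5 to 24.3%) and 15.5% (13 to 18.2%) in oligodendrocyte-like cells. The chains of type V also differed, with Col5a1 at 31 against 46 and 38 against 157 UMIs of Col5a2 in fibroblast-like cells and at 13 against 2 and 24 against 0 in tumor-like cells.

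**Figure D4:**
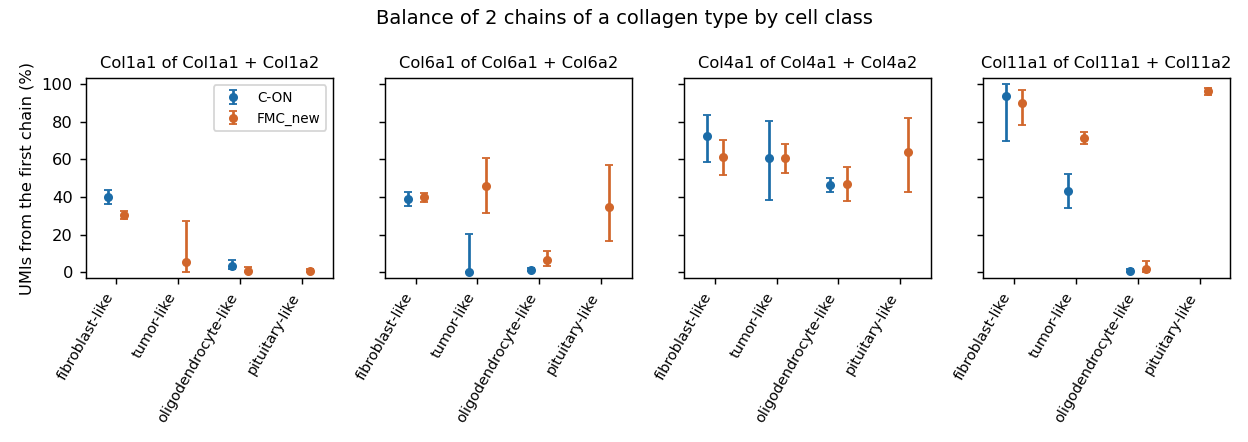
Share of the UMIs of 2 partner chains that came from the first-named chain, in percent, for types I, VI, IV and XI in 4 cell classes of both libraries (points with exact 95% Clopper-Pearson intervals, shares of fewer than 10 UMIs not drawn). Fibroblast-like and oligodendrocyte-like cells are far apart for types I, VI and XI and closer together for type IV.

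The astrocyte-like cells of FMC_new held the highest level of a single collagen gene, Col25a1 at 1468 (1388 to 1551) CPM with 1258 UMIs in 58 of 213 cells, up to 242 in a cell. Col23a1 was at 351 (313 to 393) and Col13a1 at 203 (174 to 235) CPM. The 20 astrocyte-like cells of C-ON had no UMI of Col25a1 or Col13a1, which allows up to 42.2 CPM of each, and 7 UMIs of Col23a1, all in a single cell. By the names of the cells at a second resolution, the FMC_new cells were of 2 kinds: at a lower cluster resolution 121 of them were again astrocyte-like and 92 were not. The 121 cells had no UMI of Col25a1 or Col13a1, which allows up to 7.79 CPM, and the 92 cells held all 1258 and all 174 UMIs, or 2666 (2520.4 to 2817) and 369 (316 to 428) CPM. Col23a1 was at 31.1 (16.1 to 54.4) CPM in the 121 and 612 (544 to 687) CPM in the 92 cells. The latter also carried Col9a3 at 89 (64.1 to 120.3), Col4a5 at 65.7 (44.6 to 93.2), Col18a1 at 53 (34.3 to 78.2) and Col4a6 at 46.6 (29.2 to 70.6) CPM. Col23a1, Col4a5 and Col4a6 were the 3 genes that met the rule in both libraries, with 7, 4 and 2 UMIs in C-ON.

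Astrocyte markers were partly missing from these 92 cells. Slc1a2, the main glutamate transporter of astrocytes, was at 182 against 2544 CPM in the 121 cells and Ntsr2 at 17 against 1625 CPM, whereas Gfap was at 269 against 174 CPM. Scn7a was at 983, Rax at 220.4, Lhx2 at 159 and Nkx2-1 at 144 CPM in the 92 cells, and at 0, 0, 10.4 and 18.2 CPM in the 121. These 4 genes and the split itself were picked after the values had been seen, and the data go against the astrocyte label for these cells, which are given no other name. The hormone genes of the pituitary were counted in both kinds, with Gh at 7187 and 2748 CPM in the 121 and the 92 cells, and their part in the collagen levels was not tested. Without the 92 cells, summed collagen in the astrocyte-like cells of FMC_new was 208 (165 to 258) CPM, within the interval of C-ON.

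**Figure D5:**
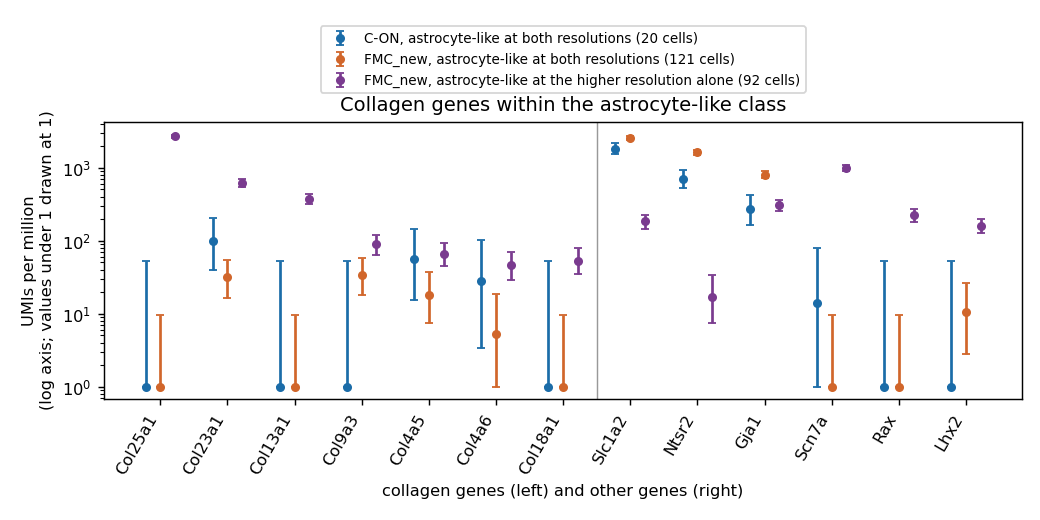
Level of 7 collagen genes (left of the line) and 6 other genes (right) in the astrocyte-like cells of C-ON and in the 2 kinds of astrocyte-like cells of FMC_new (CPM on a log axis, exact 95% Poisson intervals, values under 1 drawn at 1). Col25a1 and Col13a1 are high in the 92 cells that were astrocyte-like at the higher resolution alone and at 0 in the other groups, where Slc1a2 and Ntsr2 are high.

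In FMC_new the astrocyte-like class as a whole was higher than the tumor-like class for 12 of 32 collagen genes tested, against 13.1% of 15644 genes, and lower for 5, against 8.92%. These counts rest on a single library, include the 92 cells and come from a comparison added after the data were seen, as does that of the pituitary-like cells below.

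Microglia-like cells had a single collagen that met the rule. Col27a1 was at 80.2 (65.3 to 97.5) in C-ON and 58.9 (53.8 to 64.4) in FMC_new, against 0.717 and 1.01 CPM in T cell-like cells, and was found in 30.3% and 19.9% of microglia-like cells, at median depths of 4590 and 3685 UMIs, against 0.293% and 0.358% of T cell-like cells. Thinned to 1000 UMIs, the shares were 8.06% (4.76 to 12.6%) and 5.51% (4.46 to 6.71%) in microglia-like and 0.20% (0.0243 to 0.721%) and 0.172% (0.0632 to 0.374%) in T cell-like cells. The level of Col27a1 was higher in C-ON with intervals apart. Col15a1 followed at 15.9 and 13.5 CPM, with overlapping intervals between the libraries. The other 42 collagen genes stayed below 6 CPM in microglia-like cells of both libraries.

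The pituitary-like cells of FMC_new had 159 (153 to 167) CPM of collagen, spread over types I, XI, XXVII and XXV. Col1a2 was at 35.9 (32.7 to 39.4) CPM and Col11a1 at 29.98 (27 to 33.2) CPM. Clusters with different hormone genes differed in their collagens. The cluster led by Gh, with Prl and Pou1f1 of the growth hormone and prolactin cells, had 421 of the 453 UMIs of Col1a2 at 106 (96.4 to 117) CPM, in 184 of 357 cells, and none of Col1a1. With 0 of 421 type I UMIs, the share of Col1a1 could be up to 0.713%. The same cluster had Col27a1 at 32.1 (26.7 to 38.2) CPM and the type IV chains Col4a3 at 10.6 and Col4a4 at 5.05 CPM, partners in specialised basement membranes such as that of the kidney. A cluster with Pomc and Tbx19, genes of corticotropin and melanotropin cells, had Col11a1 at 49.7 (44 to 55.9) CPM in 199 of 602 cells and Col9a2 at 16.4 (13.2 to 20.2) CPM. There Col9a2 made up 95.8% (89.6 to 98.8%) of Col9a2 and Col9a3 UMIs, against 10.7% (8.65 to 13%) in tumor-like cells. The cluster led by Chga and Oacyl had Col11a1 at 31.3, Col8a1 at 22.2 and Col19a1 at 20.5 CPM. Against tumor-like cells of the same library, 5 of 34 collagen genes (Col4a3, Col4a4, Col25a1, Col1a2 and Col8a1) were higher in pituitary-like cells, against 14.8% of 17641 genes, and 17 were lower, against 20.2%.

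Genes that make, cross-link, bind and degrade collagen, and partners of type IV collagen in basement membranes, were followed in 5 lists. Of the hydroxylation and folding genes, 8 of 15 tested were higher in fibroblast-like than in tumor-like cells and 1 (P3h2) was lower. Serpinh1, the collagen chaperone of the endoplasmic reticulum, was at 748 and 577 CPM in fibroblast-like, 4.0 and 7.68 in tumor-like and 0.261 and 0.412 in oligodendrocyte-like cells. Of the trimming and cross-linking genes, 6 of 10 were higher in fibroblast-like cells and none was lower. Pcolce, which enhances removal of the procollagen end, was at 564 and 402 CPM there, and the cross-linking enzyme Lox at 71.5 and 52.4, against 0 and 1 UMI in tumor-like cells. The receptor list had 4 of 7 higher and none lower, among them Mrc2, an endocytic collagen receptor, at 227 and 227 CPM. Of the breakdown genes, 6 of 8 were higher and 1 (Timp4) lower, with the protease inhibitor Timp2 at 628 and 432 CPM. Of the basement membrane partners 6 of 9 were higher and none lower, with Nid1 at 171 and 108 CPM. Over all genes tested, 8.65% were called higher and 14.2% lower.

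Between tumor-like and oligodendrocyte-like cells the same lists were mixed. Hydroxylation and folding genes were higher in tumor-like cells for 7 of 13 and lower for 2, trimming and cross-linking genes for 3 and 3 of 7, receptors for 3 and 1 of 7, breakdown genes for 4 and 1 of 7, and basement membrane partners for 3 and 2 of 8. Over all genes tested, 23.6% were higher and 6.55% lower. Ddr1, a collagen-binding receptor kinase of epithelia and myelinating glia, was at 266 and 253 CPM in oligodendrocyte-like and 88 and 79.6 in tumor-like cells, and Pcolce2 at 132 and 144 against 28.8 and 32.7 CPM. In the other direction, the protease inhibitor Timp3 was at 104 and 106 CPM in tumor-like and 5.1 and 6.82 CPM in oligodendrocyte-like cells, and Timp4 at 105 and 109.6 against 0.719 and 1.12 CPM. Against the 2 and 8 endothelial-like cells, Pcolce (of 7 trimming and cross-linking genes tested) and Timp2 (of 7 breakdown genes) were called higher in fibroblast-like cells. None was called higher of 14 hydroxylation and folding genes, 6 receptors and 7 basement membrane partners, and no gene of the 5 lists was called lower. Over all 8159 genes tested, 0.601% were called higher and 1.2% lower, so few calls could be made with so few cells.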

How the data were processed

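Optic nerves were dissociated and sequenced with a 10x 5′ kit. The authors made the deposited UMI counts per gene and barcode with Cell Ranger (7.2.0 per the file headers) on mm10, without further normalization. The methods of the study give another version of Cell Ranger. Whether intronic reads were counted is not given in the sources used here.

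Cells with 500 to 5000 genes, 500 to 20000 UMIs and under 5% mitochondrial UMIs were kept. Libraries were integrated in Seurat 5.3.0 (R 4.3.3) by canonical correlation on 2000 variable genes, less the 10 collagens among them, with 30 components and resolution 0.8 (0.4 as an alternative). Clusters were named from 20 marker lists. A cluster stayed unnamed when it had no leading marker of its own and showed fewer markers of its list than it lacked, with leading markers of another class, or with fewer than 3 markers. Stromal cells were clustered again, with at least 10 cells a sub-cluster. These naming rules were set after clusters were seen. No doublets were removed: Scrublet (scanpy 1.11.5) called 1 and 0 cells and thus did not work. The limits on cells follow the methods of the study.

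UMIs were summed per class and library with exact 95% intervals (scipy 1.17.1). A gene was described singly at 20 CPM or more in a class of at least 20 cells, above the T cell-like interval, in each library that had the cells, or as a chain partner. Differences were called by size (at least 2 times, intervals apart, at least 10 UMIs in the classes compared, fewer than 3 UMIs set to 3), with no p-value. Each library is a single pool, so cells were not used as replicates. The collagen genes, gene lists and rules were chosen with earlier results of these data known.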

Additional observations from a re-analysis of the deposited data

Results flagged for a closer look

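Some collagens were high in cells outside the main comparisons, above the T cell-like level of the same library. They are given as values.

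In neuron-like cells, led by Avp, Snhg11 and Stmn2, Col25a1 was at 606 (518 to 705) CPM in C-ON, with UMIs in 31 of 35 cells, and at 445 (351 to 557) CPM in FMC_new, in 17 of 20 cells. The T cell-like levels were 1.67 and 1.09 CPM.

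In macrophage-like cells Col14a1 was at 22.7 (16.4 to 30.6) CPM in C-ON and 39.8 (34.4 to 45.8) CPM in FMC_new, against 0.239 and 0.466 CPM in T cell-like cells. In dendritic cell-like cells Col27a1 was at 14.1 (9.99 to 19.4) and 9.62 (7.84 to 11.7) CPM, against 0.717 and 1.01 CPM in T cell-like cells and below its level in microglia-like cells of either library. It was not particular to them. Macrophage-like cells had Col27a1 at 8.46 (4.83 to 13.7) and 15.6 (12.3 to 19.5) CPM, higher than dendritic cell-like cells in FMC_new with intervals apart. An unnamed cluster of 35 and 197 cells had it at 56.8 (24.5 to 112) and 37.7 (26.3 to 52.5) CPM.

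An unnamed cluster led by Mia, Cyp2f2 and Rbpms, with 288 cells in FMC_new and 10 in C-ON, had Col4a1 at 51.1 (40.6 to 63.5) CPM and Col28a1 at 32.2 (24 to 42.3) CPM in FMC_new. Col28a1 had 82 UMIs in all kept cells of FMC_new, 51 of them in this cluster.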

How the results depend on the processing

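Values here are means over the libraries. With cells gated on markers, summed collagen in fibroblast-like cells was 4669 CPM against 3188 CPM with clusters, and their share of collagen UMIs was 7.72% against 25.9%. Without upper limits on genes and UMIs the share was 19.3%. With cells thinned to 1000 UMIs, 0 collagen genes were called higher in fibroblast-like than in endothelial-like cells, against 2, and 5 higher in tumor-like than in oligodendrocyte-like cells, against 11. With a limit of 4 times the first count was 0. Thinning leaves fewer UMIs, and the cause of the other moves was not tested. The shares of all genes called under these settings and those below are not given, so the counts show only their dependence on the setting.

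Leaving out each library in turn gave 2721 to 3654 CPM for fibroblast-like, 202 to 600 CPM for endothelial-like and 431 to 525 CPM for tumor-like cells, a share of 22.7 to 29.1%, and counts of 2 to 3 and of 11 to 20. Without C-ON, the second count was 20. The remaining alternatives (lower resolution, collagens kept among the variable genes, T cell-like level subtracted, no minimum of UMIs) kept these values within the spread of the libraries and the counts within 1.5 times. So did 2 alternatives chosen after seeing the data: fibroblast-like cells without 3 sub-clusters (those of FMC_new alone or with an immunoglobulin gene in the lead), at 3485 CPM, and the highest 5% of doublet scores left out, at 3237 CPM. Scrublet called 1 cell in C-ON and 0 in FMC_new, so leaving its calls out says nothing about stability.

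Of the 22 gene levels in their highest class, none moved by over 1.5 times under subtraction or left-out doublet scores, and neither did any of the 18 recomputed under thinning or kept collagens (astrocyte-like cells gave no value there). Gating moved 6 of 18 (Col1a1, Col3a1, Col14a1, Col4a2, Col5a2 and Col27a1, all up). At resolution 0.4 Col25a1 in astrocyte-like cells went from 734 to 0 CPM, Col23a1 from 225 to 64.8 CPM and Col4a6 from 28.1 to 16.7 CPM. Without upper limits Col3a1 went from 249 to 422 CPM. Without C-ON, Col25a1 was at 1468 and Col23a1 at 351 CPM in astrocyte-like cells, and Col1a1 at 221 CPM in fibroblast-like cells. Without FMC_new, Col25a1 was at 0 and Col23a1 at 98.5 CPM in astrocyte-like cells. Gated astrocyte-like cells of C-ON were 9 and gave no value. No paired analysis was possible because both libraries belong to a single group and no test was run.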

Other observations

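Collagen was also counted in cells that stayed unnamed by rules set after the clusters were seen. A cluster of 61 cells in C-ON and none in FMC_new, led by Igfbp6, Stra6 and Smoc2 with Mgp and Dcn, had 1471 (1236 to 1738) CPM of collagen at a median of 1542 UMIs, with Col6a2 at 458 (332 to 617) CPM and Col6a1 at 266 (172 to 393) CPM. A stromal sub-cluster of 3 cells in C-ON and 49 in FMC_new, which also held microglia markers, had 9018 (7745 to 10440.3) and 1325 (1182 to 1482) CPM. Neither entered the fibroblast-like values.

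The 2013 barcodes of C-ON and 4524 of FMC_new outside the limits on genes, UMIs and mitochondrial reads had a summed collagen level of 337 (329 to 345) and 256 (251 to 262) CPM.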
